A study of Mus musculus with 22 samples.

Results

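RNA sequencing measured what the loss of Chd8 does to LSK cells that already lack P53. LSK cells lack lineage markers and carry Sca-1 and Kit, a fraction of bone marrow that holds hematopoietic stem cells and multipotent progenitors. The comparison set the 3 RNA libraries labelled Chd8-/-P53-/- against the 3 labelled P53-/-, which is 6 of the 12 RNA libraries and of 22 samples of all assays in the series. All were C57BL/6 LSK cells, sorted and processed uncultured 6 days post deletion, in mice given pI;pC, a double-stranded RNA that sets off an interferon response. The WT and Chd8-/- groups, with 3 libraries each, shared that treatment, strain and time. Both groups compared carry the P53 deletion, so the difference in label between them is Chd8. Neither the Cre driver, the deleted exons, the age of the mice, nor whether a library is 1 animal or a pool is stated in the labels used here, so p-values measure the spread between libraries.

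CHD8 is a chromatin remodeler of the chromodomain helicase family that uses ATP to move nucleosomes and is known to bind beta-catenin and to restrain p53. The transcription factor p53 (gene Trp53) responds to DNA damage and other stress by switching on genes for cell cycle arrest and cell death. Blood stem and progenitor cells are among the cells most readily lost when p53 is active.

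The values are TPM, a length-adjusted share of all transcripts in a library, summed over the transcripts of each gene, and differences are on the log2(TPM + 1) scale, Chd8-/-P53-/- minus P53-/-. Each library sums to 1000000 TPM, so sequencing depth is unknown and no counting error can be given. P53-/- replicates 1 and 2 carry another sequencing run number than the other 10 libraries, which include P53-/- replicate 3 and all Chd8-/-P53-/- libraries. Over all genes, P53-/- replicate 3 correlated at 0.950 and 0.946 with the other P53-/- libraries and at 0.955 to 0.958 with the Chd8-/-P53-/- libraries. The mitochondrial share of TPM was 2.12% and 1.90% in P53-/- replicates 1 and 2, 5.60% in replicate 3, and 6.03 to 6.27% in Chd8-/-P53-/-. Summed TPM of the Y-linked genes was 50.1 in P53-/- replicate 2 and 0.738 to 2.03 in the other 5 libraries. With P53 present it was 126, 113 and 1.16 in WT and 94.2, 106 and 116 in Chd8-/-. Most libraries with P53 thus had high Y-linked sums and most without it low ones. What part this has in the difference between both Chd8 effects was not tested. Run and genotype are confounded in part. The results are therefore read against all 3 P53-/- libraries and, as the stricter reading, in a fit on the run of 10 libraries. There the lone P53-/- library is assumed to vary like the other groups. That fit shares 4 of the 6 libraries with the main one.

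The targeted genes were read first. Trp53 stood at 254 ± 21.1 TPM (SD, n = 3) in WT, 21.3 ± 3.43 in P53-/- and 17.1 ± 0.988 in Chd8-/-P53-/-, so both groups compared bear out the P53 label. Chd8 (chromosome 14, 52198151 to 52258042, GRCm38) was at 53.1, 69.4 and 63.7 TPM in P53-/- and at 44.4, 34.8 and 44.1 TPM in Chd8-/-P53-/-. The libraries did not overlap, and Chd8 fell by 0.58 (SE 0.18, limma adjusted p = 0.0487). That call was lost when any 1 of the 6 libraries was left out (log2 difference -0.69 to -0.47, adjusted p up to 0.156), and in the run of 10 the difference was -0.63 (adjusted p = 0.208). For scale, Chd8 was at 63.1 ± 13.3 TPM in WT and 30.1 ± 4.92 in Chd8-/-. How far remaining transcript comes from exons outside the deletion or from undeleted cells was not tested. RNA of the gate genes was read next, which does not test the sort itself. Kit, the stem cell factor receptor, was at 222 to 266 TPM in P53-/- and 247 to 295 in Chd8-/-P53-/-, and Ly6a, which encodes Sca-1, at 85.0 to 89.3 and 104 to 134. Neither passed the test (adjusted p = 0.568 and 0.347), though the Ly6a values did not overlap and differed by 0.45. Beside 11.2% of all genes that rose and 3.69% that fell, none of 12 LSK gate genes fell and 1 rose. It was Slamf1, the CD150 gene of long-term stem cells, at 0.56 (adjusted p = 0.0468), and the call was lost on leaving out any of the 6 libraries (adjusted p = 0.243 in the run of 10).

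Against the 3 P53-/- libraries, 1957 of 13162 genes passed the test (14.9% at limma adjusted p below 0.05), of which 1471 were higher (11.2%) and 486 lower (3.69%). Of these, 242 changed at least 2-fold, 138 upward and 104 downward. The libraries of both groups did not overlap in 1951 of the 1957 genes, and over all genes the groups did not overlap in 4641 (35.3%). The excess of rises depends on scaling. The median difference over all genes was 0.11, and with median-of-ratios scaling, which brings it to 0.00, 558 genes were higher and 756 lower. Quantile normalization gave 662 higher and 723 lower, and TPM rescaled without mitochondrial and ribosomal protein genes gave 1075 and 545. Counts also hung on single libraries. They were 434 higher and 242 lower without P53-/- replicate 1, and 2224 and 865 without P53-/- replicate 3, the library that shares its run with Chd8-/-P53-/-. Without any other of the 6 libraries, 466 to 972 genes were higher and 209 to 272 lower.

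In the run of 10 libraries alone, 298 genes passed (2.26%), 180 higher (1.37%) and 118 lower (0.897%). All 1957 genes kept their sign there, and 222 of them passed in both fits (1.69% of genes tested and 11.3% of the calls), 137 higher (1.04%) and 85 lower (0.646%). Of the rises 9.3% held in this way and of the falls 17.5%. The kept sign was nearly fixed in advance, since both fits share libraries and the groups did not overlap in 1951 of the 1957 genes. In 517 of the 1957 genes, P53-/- replicate 3 lay more than halfway from the other P53-/- libraries toward the Chd8-/-P53-/- mean.

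**Figure D1:**
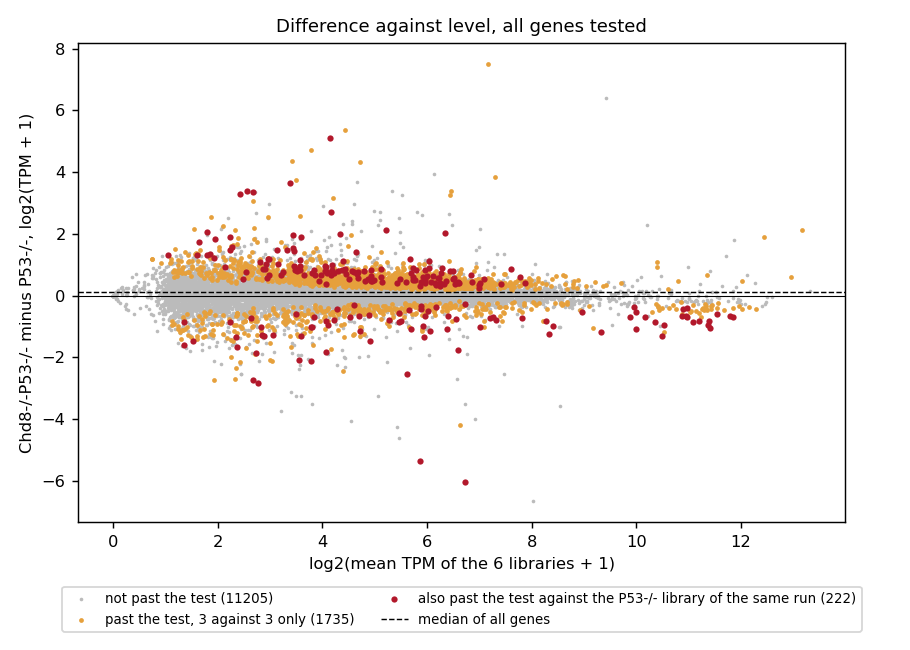
Difference between Chd8-/-P53-/- and P53-/- on the log2(TPM + 1) scale (y) against log2 of the mean TPM of the 6 libraries plus 1 (x), with 1 point for each of 13162 genes. The 222 genes past the test in both fits (red) spread over all levels, and the dashed line marks the median of 0.11.

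Of the 12 largest falls named past both fits, 8 lie off the chromosome of Chd8, and all of these but Dmwd also fell in Chd8-/- against WT. Zfp580, a zinc finger protein gene (chromosome 7, 5038519 to 5053723), was at 11.5, 11.4 and 7.50 TPM in P53-/- and at 1.20, 0.296 and 0.536 in Chd8-/-P53-/-, a fall of 2.74 (SE 0.22, adjusted p = 0.000149). Phpt1, which encodes a phosphohistidine phosphatase (chromosome 2, 25573430 to 25575514), was at 90.8, 88.9 and 69.2 TPM against 12.6, 12.8 and 14.96, a fall of 2.53 (SE 0.17, adjusted p = 3.32e-05). Every Chd8-/-P53-/- library was below every P53-/- library for both genes, but such a lack of overlap was a condition for naming them. With P53 present the same genes fell by 2.65 and 2.68 in Chd8-/- against WT (adjusted p = 5.20e-05 and 6.68e-06).

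Hmgn1, a nucleosome-binding protein that loosens chromatin, was at 151, 180 and 116 TPM in P53-/- and 42.9, 45.3 and 39.6 in Chd8-/-P53-/-, a fall of 1.76 (SE 0.14, adjusted p = 0.000121). Rps6kc1, a member of the ribosomal S6 kinase family, fell by 1.86 (9.06, 8.92 and 10.3 TPM against 1.81, 1.25 and 2.70). Usp11, a deubiquitinating enzyme, fell by 1.47 from 39.8, 47.6 and 42.0 TPM to 14.1, 13.3 and 17.3. For these 3 genes the gap between the genotypes was wider than the range within either. The other falls were Dmwd, a WD-repeat gene, at -2.13, Tmsb15l, of the actin-binding thymosin family, at -1.66, and Man2c1, a cytosolic mannosidase, at -1.34. The adjusted p of these 5 genes lay between 0.000375 (Rps6kc1) and 0.00177 (Man2c1). The falls named here that lie on chromosome 14 (Ear1, Rnase12, Ppp1r3e and Rec8) are described with that chromosome.

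Among the rises past both fits, Klhdc8b, a kelch-repeat gene (chromosome 9, 108447635 to 108461581), was at 12.3, 15.3 and 10.3 TPM in P53-/- and 59.6, 44.5 and 74.6 in Chd8-/-P53-/-, up by 2.14 (SE 0.23, adjusted p = 0.000699). Oplah, the 5-oxoprolinase of the glutathione cycle, was at 2.70, 3.58 and 3.84 TPM against 13.9, 16.1 and 18.7, up by 1.98 (SE 0.20, adjusted p = 0.000503). Ly96 encodes MD-2, the partner through which TLR4 senses lipopolysaccharide, and was at 4.40, 4.56 and 4.51 TPM against 15.9, 13.0 and 16.7, up by 1.55 (SE 0.19, adjusted p = 0.00151). In each of these genes the lowest Chd8-/-P53-/- library stood well above the highest P53-/- library, where no overlap was a condition for being named. Spa17, first known from sperm, rose by 1.89, and Ttll9, of the tubulin tyrosine ligase-like family, by 1.58.

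Not every rise had a counterpart with P53 present. C2cd4a, a C2 domain gene, was at 0.0438, 0 and 0.0677 TPM in P53-/- and at 4.43, 13.9 and 13.7 in Chd8-/-P53-/-, a difference of 3.35 (SE 0.36, adjusted p = 0.000760) against 0.61 in Chd8-/- against WT (adjusted p = 0.282). It was near 0 in WT as well, at 0.0562 ± 0.0504 TPM, so the Chd8-/-P53-/- libraries were the high ones of the 12. Arhgdig rose by 1.89 without P53 (adjusted p = 0.00147) and differed by 0.41 with it (adjusted p = 0.259). The test of that difference of differences gave an adjusted p of 0.0245 for C2cd4a and 0.0530 for Arhgdig. Zfp984 and Zfp987, KRAB-type zinc finger genes of a repeated cluster on chromosome 4, rose by 2.00 and 1.84, but the handling of reads that match several copies is not stated, so their values are uncertain. None of the 24 largest changes past both fits lost its call when any 1 of the 12 libraries was left out. That was in part built in, since they were chosen for size, calls in both fits and no overlap. Under the other settings run, the calls lost were those of Zfp987, in the fit on the 6 libraries alone and with the most abundant transcript in place of the gene sum. Predicted gene models and antigen receptor segments, some with larger differences, were left out of these 24.

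**Figure D2:**
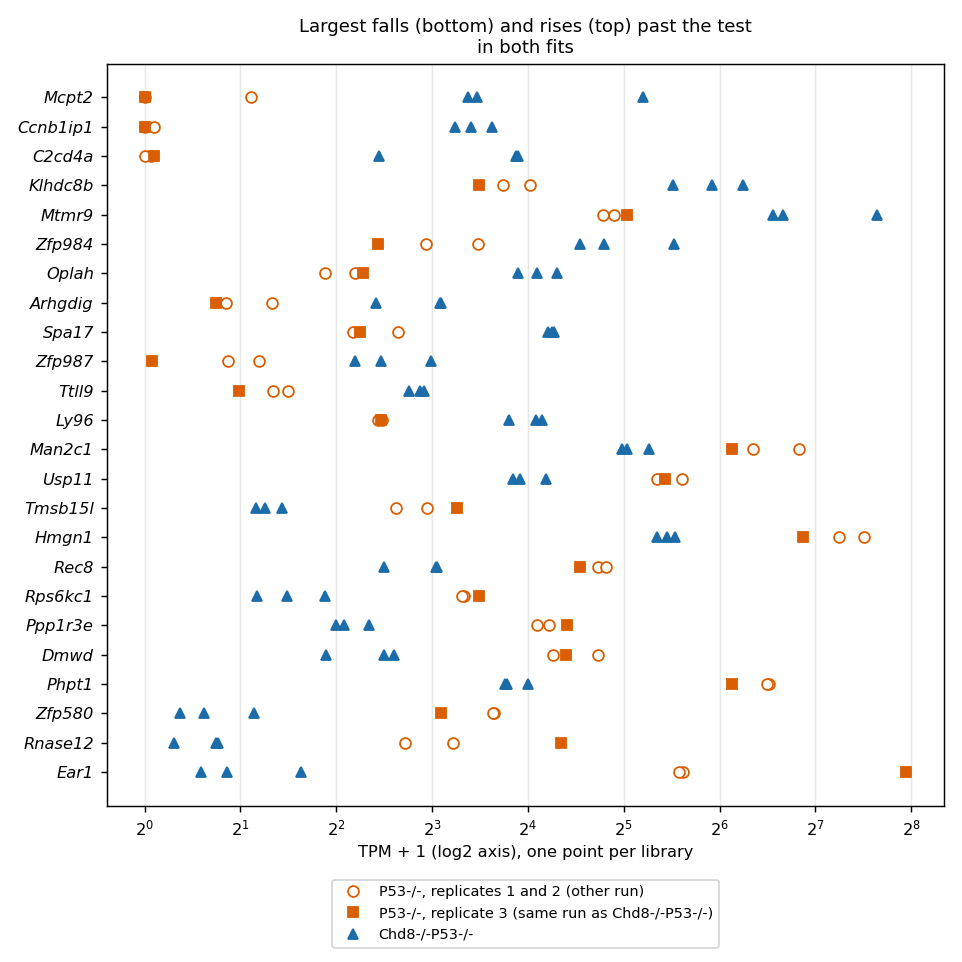
TPM + 1 on a log2 axis in each of the 3 P53-/- libraries (orange, filled for the library of the same run) and the 3 Chd8-/-P53-/- libraries (blue) for the 12 largest rises and 12 largest falls past both fits. No overlap between the genotypes was a condition for being shown. For Phpt1 the P53-/- libraries sit at 69.2 to 90.8 TPM and the Chd8-/-P53-/- libraries at 12.6 to 14.96.

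Promoters are shown next for genes that were chosen for moving in the same direction with and without P53. Of the genes past both fits that also passed in Chd8-/- against WT in the same direction, 104 were higher, and RefSeq (GRCm38.p6) holds 116 promoters for 83 of them. TGACGTCA, the palindromic cAMP response element bound by CREB and ATF factors, was in 9 of these 116 (7.76%, from 8 genes), in 2.99% of 12069 promoters of genes tested and in 1.79% of all 32851. It was also in 5.08% of 59 promoters of the genes lower in both comparisons and in 8.96% of 67 promoters of ribosomal protein genes, most of which were lower, so it was not limited to the rises. The other motifs searched on both strands were the interferon-stimulated response element (3.45%, against 3.27% of promoters of genes tested), TTTCCCGC (1.72% against 1.98%), CACGTG (10.3% against 9.95%) and GATAAG (6.90% against 5.15%). None of the 5 motifs lies within another. A match is a description of letters, not a binding site. The 4 promoters printed first are those with the largest rises among the 8 genes with TGACGTCA, chosen after the search, with the motif in capitals.
Csf2ra (chr19:61228369-61228668, minus strand): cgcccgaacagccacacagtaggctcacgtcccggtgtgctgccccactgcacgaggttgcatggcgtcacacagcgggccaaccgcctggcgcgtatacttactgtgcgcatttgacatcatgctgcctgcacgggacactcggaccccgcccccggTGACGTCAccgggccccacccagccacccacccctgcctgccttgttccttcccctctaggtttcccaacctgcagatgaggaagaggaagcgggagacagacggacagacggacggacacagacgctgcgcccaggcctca
Mettl4 (chr17:94749970-94750269, minus strand): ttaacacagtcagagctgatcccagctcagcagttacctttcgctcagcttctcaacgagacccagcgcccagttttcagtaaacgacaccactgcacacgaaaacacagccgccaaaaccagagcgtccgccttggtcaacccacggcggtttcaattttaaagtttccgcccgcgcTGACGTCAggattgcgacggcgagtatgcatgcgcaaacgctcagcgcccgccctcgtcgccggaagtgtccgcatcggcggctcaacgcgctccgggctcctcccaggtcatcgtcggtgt
Lyrm1 (chr7:119895611-119895910, plus strand): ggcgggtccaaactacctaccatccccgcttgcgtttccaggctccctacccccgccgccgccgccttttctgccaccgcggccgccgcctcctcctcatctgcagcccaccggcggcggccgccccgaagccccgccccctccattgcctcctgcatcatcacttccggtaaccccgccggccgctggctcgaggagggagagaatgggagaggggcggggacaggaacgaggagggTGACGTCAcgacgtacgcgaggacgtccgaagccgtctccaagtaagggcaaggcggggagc
Znrd1as (chr17:36958350-36958649, plus strand): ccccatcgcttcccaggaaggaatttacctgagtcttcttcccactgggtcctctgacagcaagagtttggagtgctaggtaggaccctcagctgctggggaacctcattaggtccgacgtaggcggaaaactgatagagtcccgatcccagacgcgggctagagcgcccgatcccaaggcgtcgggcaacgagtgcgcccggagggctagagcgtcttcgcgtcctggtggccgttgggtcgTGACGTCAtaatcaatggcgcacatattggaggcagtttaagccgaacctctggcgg
The promoters of the 2 largest named falls past both fits off chromosome 14 are shown beside them and held none of the 5 motifs.
Zfp580 (chr7:5051282-5051581, plus strand): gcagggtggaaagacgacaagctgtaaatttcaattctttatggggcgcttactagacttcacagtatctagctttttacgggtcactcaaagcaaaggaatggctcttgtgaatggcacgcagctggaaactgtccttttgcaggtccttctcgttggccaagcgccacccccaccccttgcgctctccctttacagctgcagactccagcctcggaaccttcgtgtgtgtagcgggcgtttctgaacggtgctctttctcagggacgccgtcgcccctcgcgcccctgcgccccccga
Phpt1 (chr2:25574822-25575121, minus strand): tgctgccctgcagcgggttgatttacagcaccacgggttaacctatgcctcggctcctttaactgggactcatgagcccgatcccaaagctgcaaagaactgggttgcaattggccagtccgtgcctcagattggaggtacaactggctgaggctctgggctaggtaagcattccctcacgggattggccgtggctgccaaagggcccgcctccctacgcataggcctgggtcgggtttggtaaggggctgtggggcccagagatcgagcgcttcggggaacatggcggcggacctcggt

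Of the genes with these 4 promoters, Csf2ra, the alpha chain of the GM-CSF receptor that drives myeloid growth, was at 45.0, 48.7 and 30.4 TPM in P53-/- and 90.1, 86.6 and 89.8 in Chd8-/-P53-/-, up by 1.11 (SE 0.19, adjusted p = 0.00690). Lyrm1, a member of the LYR motif family of mitochondria, was at 3.00, 3.47 and 4.03 TPM against 8.80, 8.34 and 8.14, up by 1.07 (adjusted p = 0.000778). Mettl4, a methyltransferase-like gene, was at 9.41, 10.5 and 17.7 TPM against 26.0, 27.1 and 28.6. It rose by 1.11 over the 3 P53-/- libraries and by 0.59 against the one of the same run, and the call stood there (adjusted p = 0.0218). Znrd1as, an RNA antisense to its neighbour, rose by 0.96 (adjusted p = 0.00406), and since strand handling is not given its reads cannot be told from those of the gene it overlaps. The other genes with the motif, Pgap2, Larp7, Chmp2a and Tmem183a, rose by 0.40 to 0.63.

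Part of these genes also moved when Chd8 was lost with P53 present. Chd8-/- against WT gave 2189 genes (16.6%), 1270 higher (9.65%) and 919 lower (6.98%), and that comparison shares no library with Chd8-/-P53-/- against P53-/-, although one estimate of spread serves both. Of the 222 genes past both fits, 171 (77.0%) passed there in the same direction, 104 upward and 67 downward. Over all calls, 659 genes were shared in direction, which is 33.7% of the calls without P53 and 30.1% of those with it, and 26 went in opposite directions. The difference between both Chd8 effects itself passed for 237 genes (1.80%; 127 higher, 0.965%, and 110 lower, 0.836%, without P53; 2564 at an unadjusted p below 0.05). It passed for 1562 without P53-/- replicate 3 and for 122 without WT replicate 1. Among the 171, 2 passed that test. A call in the same direction in both comparisons was the condition for being among them, so a low count was in part built in. Beside those named above, the shared set held Pccb, a subunit of propionyl-CoA carboxylase, at -1.16 without P53 and -1.37 with it, and Timeless, a replication fork protector, at -1.09 and -1.19. These, with Psmb5 and Cmah below, were picked after their values were seen. Of the 26 genes that went opposite ways, Psmb5, Cmah and Ccnb1ip1 passed in both fits. Cmah, the enzyme that makes N-glycolylneuraminic acid, was at 11.1, 13.9 and 14.03 TPM in P53-/- and 22.4, 22.1 and 22.5 in Chd8-/-P53-/-, up by 0.74, and differed by -0.41 with P53 present.

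The p53 targets gave another picture. Of 51 targets tested, 2 rose and none fell without P53, beside 11.2% and 3.69% of all genes. Their median difference was 0.00, against 0.11 over all genes. In Chd8-/- against WT, 31 rose and 2 fell, beside 9.65% and 6.98% of all genes, with a median of 1.03. The difference between both effects passed for 20 targets, all smaller without P53, and for 1.80% of all genes. Cdkn1a, the p21 inhibitor of cell cycle kinases, was at 7.01, 19.6 and 12.5 TPM in P53-/- and 8.10, 7.33 and 8.36 in Chd8-/-P53-/-. The difference of -0.55 did not pass (adjusted p = 0.263), while it was 3.54 with P53 present. Mdm2, the ubiquitin ligase of p53, was at 45.2, 58.9 and 40.7 TPM against 46.3, 44.2 and 50.5, a difference of -0.02 (adjusted p = 0.942). The targets that rose were Aen, an apoptosis-enhancing nuclease, at 0.57 (37.7, 37.1 and 40.6 TPM against 56.8, 60.1 and 55.4; adjusted p = 0.00527), and Rrm2b, the p53-inducible ribonucleotide reductase subunit, at 0.70 (adjusted p = 0.0270). Neither passed in the run of 10 (adjusted p = 0.0940 and 0.200), and Rrm2b lost its call without P53-/- replicate 1 or any Chd8-/-P53-/- library. Without P53-/- replicate 3, 5 targets rose and 2 fell, and with median-of-ratios or quantile scaling 2 rose and 1 fell.

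**Figure D3:**
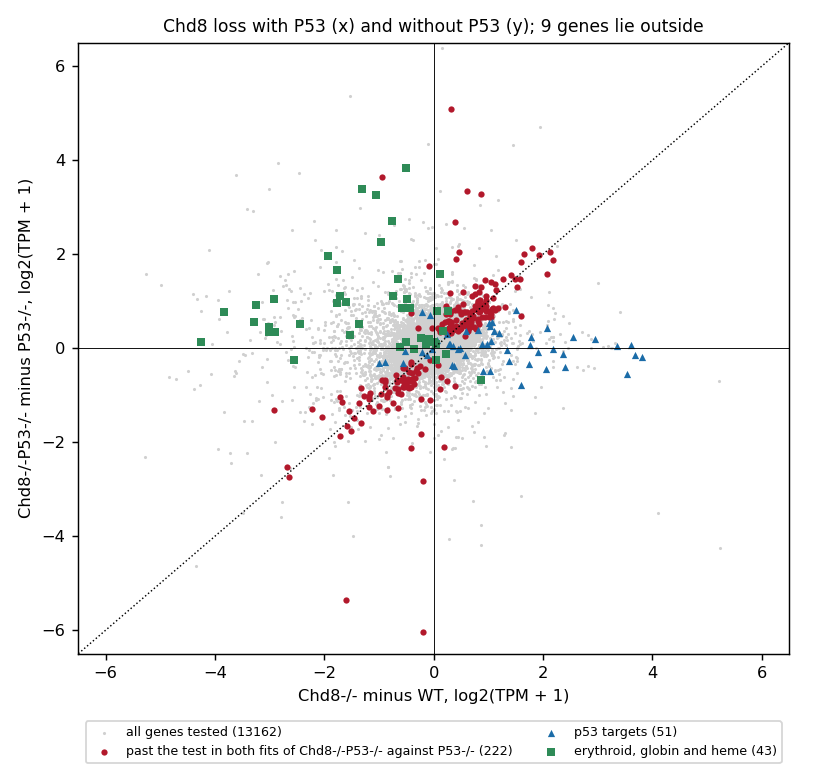
Chd8 effect without P53 (y, Chd8-/-P53-/- minus P53-/-) against the effect with P53 (x, Chd8-/- minus WT), both as log2(TPM + 1) differences, with 1 point a gene. Most of the 222 genes past both fits (red) lie near the diagonal, the 51 p53 targets (blue) spread along x around a median of 0.00 on y, and 9 genes lie outside the axes.

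Translation genes moved in opposite directions. Among 78 genes for proteins of the cytoplasmic ribosome, 24 fell and 1 rose with P53 present, beside 6.98% and 9.65% of all genes. Without P53, beside 3.69% and 11.2% of all genes, 42 fell and 1 rose (median -0.33, against 0.11 over all genes). Together they took 20.2 to 23.2% of TPM in P53-/- and 16.2 to 16.8% in Chd8-/-P53-/-. The share was 16.7 to 18.6% in WT and 15.5 to 16.4% in Chd8-/-, so the P53-/- libraries were the high ones of the 12. In the run of 10, 17 fell and 1 rose, and 16 of the falls passed in both fits. Rps4x, of the small subunit, was at 3687, 3562 and 3753 TPM in P53-/- and 1713, 1828 and 1825 in Chd8-/-P53-/-, a fall of 1.04 (SE 0.07, adjusted p = 3.32e-05). Rpl29, of the large subunit, fell by 0.94 (1980, 1822 and 2019 against 1014, 1029 and 981). Rpl37 fell by 1.17, from 973, 840 and 861 TPM to 370, 389 and 430. In these genes the P53-/- library of the same run sat with the other P53-/- libraries, not between the genotypes. Rpl27 went the other way, from 136, 136 and 138 TPM to 226, 270 and 253, up by 0.86 (adjusted p = 0.00182). The count of falls was 42 with median-of-ratios scaling (median -0.45) and 22 with quantile normalization (median -0.18). It ran from 29 to 48 with 1 library left out. Ribosomal protein genes have many processed copies, and how shared reads were divided is not given, so single values are uncertain.

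Of 40 ribosome biogenesis genes, which build ribosomes in the nucleolus, 11 rose and none fell with P53 present, beside 9.65% and 6.98% of all genes. Without P53, beside 11.2% and 3.69% of all genes, 21 rose and none fell (median 0.35). None passed in the run of 10 (22 at an unadjusted p below 0.05), where the median was 0.28 against 0.13 over all genes. Utp4, of the small subunit processome, was at 37.8, 40.6 and 52.0 TPM in P53-/- and 73.2, 77.9 and 71.0 in Chd8-/-P53-/-, up by 0.77 (adjusted p = 0.00493), and by 0.50 against the lone library (adjusted p = 0.0928). Pes1, of the PeBoW complex of the large subunit, was at 93.8, 95.1 and 98.9 TPM against 137, 139 and 126, up by 0.47 (adjusted p = 0.00492). Every Chd8-/-P53-/- library was above every P53-/- library for both. The count moved with scaling and with single libraries. With median-of-ratios scaling 8 rose, with quantile normalization 15, and 11 without Chd8-/-P53-/- replicate 2 or 25 without P53-/- replicate 3. CACGTG, the E-box bound by MYC family factors, was in 18.6% of 43 promoters of these genes and in 9.95% of promoters of genes tested. It was picked from the 5 motifs after the search, and was also in 13.3% of 30 S phase and 13% of 54 p53 target promoters. Of the other motifs, TTTCCCGC was in 4.65% (1.98% for genes tested), the interferon-stimulated response element in 2.33% (3.27%), and TGACGTCA and GATAAG in none. Of 41 nuclear oxidative phosphorylation genes 5 rose and 3 fell, beside 11.2% and 3.69% of all genes. None rose with median-of-ratios scaling and 2 with quantile. Rises ran from 0, without P53-/- replicate 1 or Chd8-/-P53-/- replicate 2, to 12, without P53-/- replicate 3, and falls from 1 to 4. Cox8a, of cytochrome c oxidase, was past both fits at -0.54 (598, 578 and 603 TPM against 408, 428 and 389).

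**Figure D4:**
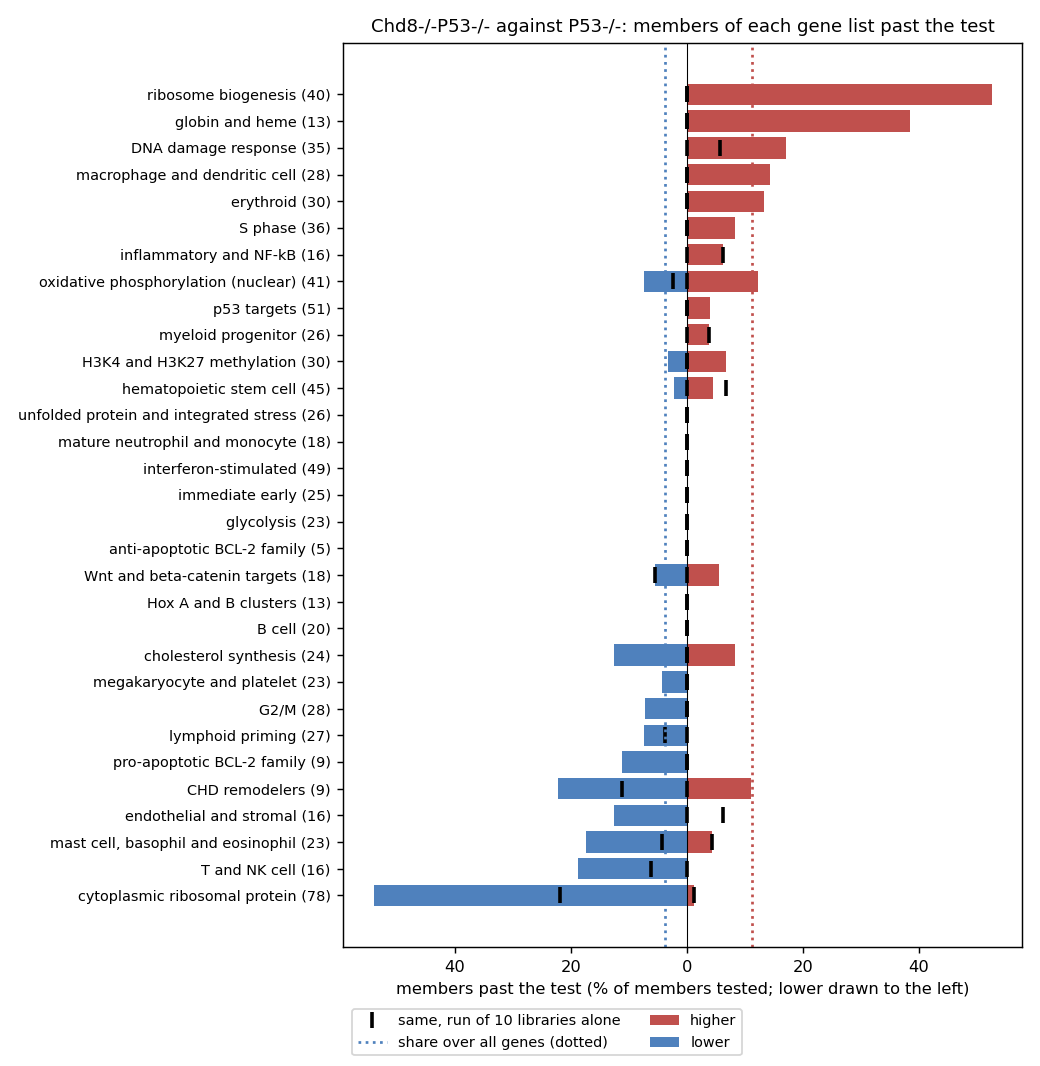
Share of the tested members of each gene list (number in brackets) that were higher (red, right) or lower (blue, left) in Chd8-/-P53-/- than in P53-/-, with black ticks for the run of 10 libraries alone and dotted lines for the shares over all genes. The bar for ribosomal protein genes stands for 42 of 78 with its tick at 17 in the run of 10, and that for ribosome biogenesis genes for 21 of 40 with its tick at 0.

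Of 35 DNA damage response genes, 6 rose (over all genes 11.2% did) and none fell, and 2 of them passed in both fits. With median-of-ratios or quantile scaling 2 rose. The 6 became 2 to 7 with 1 library left out, 2 without Chd8-/-P53-/- replicate 2 and 3 without any other of these 6 libraries but P53-/- replicate 3. Mdc1, the scaffold that gathers repair proteins on phosphorylated histone H2AX, was at 41.5, 49.9 and 42.8 TPM in P53-/- and 86.4, 85.7 and 80.5 in Chd8-/-P53-/-, up by 0.90 (SE 0.09, adjusted p = 0.000503). Xrcc4, the partner of DNA ligase IV in end joining, was at 10.4, 9.84 and 11.6 TPM against 20.7, 20.8 and 20.9, up by 0.91 (SE 0.10, adjusted p = 0.000832). The values within each genotype were close together, and both genes rose as well with P53 present, by 0.96 and 0.86. Of 36 S phase genes 3 rose (over all genes 11.2% did) and none fell. With median-of-ratios or quantile scaling none rose and 3 fell, so their direction turns with scaling. Without P53-/- replicate 3, 6 S phase genes rose, and without P53-/- replicate 1 or any Chd8-/-P53-/- library none did. Of 28 G2/M genes 2 fell and none rose, beside 3.69% and 11.2% of all genes. However, 6 G2/M genes rose without P53-/- replicate 3, and none fell without Chd8-/-P53-/- replicate 2 or 3. Neither list had a call in the run of 10. The S phase and G2/M calls were small, between -0.34 (Knstrn, a spindle protein) and 0.50 (Rfc4, a clamp loader subunit).

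Among 27 lymphoid priming genes 2 fell and none rose without P53 (median -0.04), beside 3.69% and 11.2% of all genes. With P53 present 20 fell and none rose (median -1.26), beside 6.98% and 9.65% of all genes. The difference between both effects passed for 7 of the 27 genes, each with the higher difference without P53, and for 1.80% of all genes. Tcf7, the TCF-1 factor of early T cells and a Wnt effector, was past both fits, at 10.5, 6.59 and 11.6 TPM in P53-/- and 3.48, 3.12 and 2.99 in Chd8-/-P53-/-, a fall of 1.30 (SE 0.20, adjusted p = 0.00380). It fell by 2.22 with P53 present. Trbc1, a T cell receptor beta constant region, fell by 1.31 (18.1, 12.6 and 17.9 TPM against 5.76, 5.50 and 6.31). With P53 present it fell by 2.93, and the difference between both effects passed (adjusted p = 0.00864). Lck, the kinase of T cell receptor signalling, fell by 1.26 over 3 libraries (adjusted p = 0.0119) and differed by -0.79 against the library of the same run (adjusted p = 0.181). Of 16 T and NK cell genes, 3 fell (Trbc1, Lck and Thy1) and none rose, beside 3.69% and 11.2% of all genes. The median of the list was 0.05. Thy1 did not pass in the run of 10 (adjusted p = 0.138) and lost its call without P53-/- replicate 2, Chd8-/- replicate 1 or any Chd8-/-P53-/- library. The list summed to 271 to 336 TPM in P53-/- and 139 to 219 in Chd8-/-P53-/-. In sorted bulk RNA, fewer cells of a type and less RNA per cell cannot be told apart.

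None of 20 B cell genes passed in limma (1 at an unadjusted p below 0.05, against 4106 of 13162 over all genes). Their summed TPM was 771, 1480 and 2132 in P53-/- and 1351, 1416 and 2224 in Chd8-/-P53-/-, and the median difference was 0.69 over 3 libraries but -0.70 against the library of the same run. Without P53-/- replicate 3, 6 B cell genes rose. In Chd8-/- against WT 12 fell and none rose, beside 6.98% and 9.65% of all genes. The test of the difference between both effects passed for 6 B cell genes and for 1.80% of all genes.

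In the myeloid branch, of 23 mast cell, basophil and eosinophil genes 1 rose and 4 fell, beside 11.2% and 3.69% of all genes. Mcpt2 and Ear1 passed both fits and lie on chromosome 14. Prss34, a basophil protease, was at 29.0, 29.4 and 44.4 TPM in P53-/- and 9.18, 3.63 and 4.34 in Chd8-/-P53-/-, a fall of 2.45 (adjusted p = 0.00810; 0.0718 in the run of 10). Siglecf, an eosinophil lectin receptor, fell by 1.12 (9.73, 9.45 and 12.4 TPM against 5.21, 4.72 and 3.13; adjusted p = 0.0156). Gata2, a factor of stem and mast cells, fell by 0.44, and neither passed in the run of 10 (adjusted p = 0.0949 and 0.109). The summed TPM of this list was 2597, 2109 and 5947 in P53-/- and 4429, 1458 and 2154 in Chd8-/-P53-/-, so the sums overlapped while these members did not. Of 28 macrophage and dendritic cell genes 4 rose, near the share of 11.2% over all genes, and none fell. Among the rises was Cd68, a lysosomal glycoprotein of macrophages, at 1.05 (21.2, 22.6 and 16.4 TPM against 45.1, 49.5 and 33.3; adjusted p = 0.0171). None passed in the run of 10, where Cd68 differed by 1.31 (adjusted p = 0.0899). With 1 library left out the count ran from 0, without P53-/- replicate 1 or Chd8-/-P53-/- replicate 2, to 5, without WT replicate 3.

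The red cell genes were uneven between libraries. Hbb-bs, a beta globin, was at 13.8, 8.93 and 22.4 TPM in P53-/- and 58.2, 324 and 514 in Chd8-/-P53-/-, a difference of 3.83 (SE 0.65, adjusted p = 0.00623; 0.117 in the run of 10). Hba-a1 and Hba-a2, alpha globins with near-identical sequences, rose by 3.38 and 3.27. The summed globin TPM was 39.1 to 57.2 in P53-/- and 174, 812 and 1050 in Chd8-/-P53-/-, all above but spread over a wide range. Of 13 globin and heme genes 5 rose and none fell, beside 11.2% of all genes that rose. Of 30 erythroid genes 4 rose (Trim10, Slc4a1, Tfrc and Rhag), near that share, and none fell. Neither list had a call in the run of 10. With 1 library left out, 3 to 8 globin and heme genes rose, the 8 without P53-/- replicate 3 and the 3 without P53-/- replicate 1 or Chd8-/-P53-/- replicate 2 or 3. The summed TPM of the erythroid list was highest in P53-/- replicate 3, at 3735 against 1351 and 1440 in the other P53-/- libraries and 1757 to 2650 in Chd8-/-P53-/-. Rhag, a red cell membrane glycoprotein, was at 3.86, 4.34 and 25.4 TPM in P53-/- and 28.9 to 40.7 in Chd8-/-P53-/-. Without P53-/- replicate 3, 17 erythroid genes rose, and without Chd8-/-P53-/- replicate 2 or P53-/- replicate 1, 1 did. The median of the erythroid list was 0.53 over 3 libraries and -0.19 in the run of 10. In Chd8-/- against WT 16 erythroid genes fell and none rose, beside 6.98% and 9.65% of all genes. The test of the difference between both effects passed for 10 erythroid genes and for 1.80% of all genes. What part red cell precursors in the sort have in these values was not tested.

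Of 45 hematopoietic stem cell genes 2 rose and 1 fell, beside 11.2% and 3.69% of all genes (median 0.17, against 0.11 over all genes). Tek, the TIE2 receptor of quiescent stem cells, was past both fits at 6.74, 9.46 and 6.04 TPM against 14.03, 10.9 and 15.7, up by 0.80 (SE 0.17, adjusted p = 0.0139), though the call was lost without P53-/- replicate 1 or Chd8-/-P53-/- replicate 1 or 3 (adjusted p up to 0.0581). In the run of 10, 3 stem cell genes were higher, Tek with Mecom, a stem cell zinc finger factor, and Tie1, a TIE receptor. Mecom and Tie1, named after their values were seen, differed by 1.19 and 1.09 there but by 0.28 and 0.45 over 3 P53-/- libraries (adjusted p = 0.582 and 0.228), and P53-/- replicate 3 was the lowest of the 6 libraries for both. Among 30 H3K4 and H3K27 methylation genes 2 rose and 1 fell, beside 11.2% and 3.69% of all genes. With median-of-ratios or quantile scaling none rose and 2 fell, and the rises ran from 0, without P53-/- replicate 1 or any Chd8-/-P53-/- library among others, to 4, without P53-/- replicate 3. The gene that fell was Phf19, a Polycomb-like partner of PRC2, at -1.06 (14.1, 22.4 and 13.0 TPM against 8.19, 7.44 and 6.03; adjusted p = 0.00829, and 0.0907 in the run of 10). Of the 9 CHD remodelers tested, Chd3 of the NuRD complex fell by 0.83 (adjusted p = 0.0133) beside Chd8, and Chd7 rose by 0.74 (adjusted p = 0.0422), neither of them in the run of 10 (adjusted p = 0.181 and 0.499).

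Several lists had no member past the test in limma, here or in the run of 10. At an unadjusted p below 0.05 stood 2 of the 49 interferon-stimulated genes (median 0.29), 2 of 25 immediate early genes, 2 of 18 mature neutrophil and monocyte genes and 6 of 23 glycolysis genes. So did 1 each of 26 genes of the unfolded protein and integrated stress responses, 13 Hox A and B genes and 5 anti-apoptotic BCL-2 genes. For all genes tested in the main fit the count was 4106 of 13162, a larger share than in any of these lists. For immediate early genes the median was -0.75 over 3 libraries and 0.28 against the library of the same run, and 12 were lower without P53-/- replicate 3. For interferon-stimulated genes 8 rose without WT replicate 3, a library that is not in the comparison but in the pooled spread. Few genes passed in the remaining lists. Csf2ra, of the myeloid progenitor list, and Tcf7, of the Wnt targets, passed both fits and lost their call under no setting run. Nfkb2, of the inflammatory list, passed both fits as well (0.39), but lost its call under 17 settings, both scalings among them. The calls of 5 cholesterol synthesis genes (2 rose, 3 fell), of Sox4 (a Wnt target, 0.35), Nrgn (megakaryocyte and platelet, -0.65), Bok (pro-apoptotic, -1.04), and Cxcl12 and Igfbp7 (endothelial and stromal) were absent in the run of 10 (adjusted p = 0.154, 0.165, 0.199, 0.251 and 0.371 for the named genes in this order). Sox4 also lost its call without any 1 of the 6 libraries.

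A larger share of genes passed near Chd8 than elsewhere, a count to which no test was applied. Within 15 Mb of Chd8 on chromosome 14, a window set by earlier work on these data, 55 of 198 genes tested passed (27.8%, against 14.9% of all), and 17 passed in both fits (8.59%, against 1.69%). Within 15 Mb of Trp53 on chromosome 11, 58 of 352 passed (16.5%) and 4 in both fits (1.14%). Ear1, an eosinophil-associated ribonuclease (43818765 to 43819639), was at 48.1, 46.7 and 246 TPM in P53-/- and 2.09, 0.509 and 0.818 in Chd8-/-P53-/-, a fall of 5.35 (SE 0.60, adjusted p = 0.000832). It was at 1.74, 1.24 and 5.08 TPM in WT and 0, 0 and 0.320 in Chd8-/-, so the P53-/- libraries were the high ones of the 12.

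The same layout recurred in neighbours. Rec8, a meiotic cohesin subunit (55618002 to 55625395), was at 25.5, 27.2 and 22.3 TPM in P53-/- against 7.28, 4.66 and 7.25 in Chd8-/-P53-/-, 5.68 ± 0.886 (SD, n = 3) in WT and 4.79 ± 1.49 in Chd8-/-. Ppp1r3e, a glycogen-targeting subunit of protein phosphatase 1 (54875597 to 54877538), was at 16.1, 17.6 and 20.2 TPM against 3.24, 2.99 and 4.06, with 2.69 ± 0.979 in WT and 3.09 ± 0.565 in Chd8-/-. Rnase12, of the ribonuclease A family, was at 8.30, 5.56 and 19.4 TPM against 0.674, 0.238 and 0.694. Psmb5, a catalytic subunit of the proteasome, was at 202, 193 and 208 TPM against 111.9, 118.5 and 113.4, with 107 ± 13.5 in WT.

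Of the rises past both fits in the window, Ipo4, Rabggta, Gmpr2, Msra and Trav6n-6 rose with P53 present too, by 0.42 to 0.98 (adjusted p up to 0.0338). Trav6n-6, a T cell receptor segment, was listed at 0 TPM in all P53-/- libraries. In others the mirror image was seen, and 3 of those follow. Ccnb1ip1, which acts in meiotic crossing over (50789249 to 50795728), was listed at 0, 0.0702 and 0 TPM in P53-/- and at 9.61, 8.41 and 11.3 in Chd8-/-P53-/-, 13.5, 12.4 and 7.84 in WT and 3.92, 4.29 and 3.27 in Chd8-/-. Mcpt2, a mast cell protease (56021584 to 56044635), was listed at 0, 1.16 and 0 TPM in P53-/- against 35.9, 9.38 and 10.1, and was at 42.1 ± 19.0 in WT. Mtmr9, a myotubularin-related protein (63519651 to 63544027), was at 26.6, 28.9 and 31.8 TPM against 93.1, 100 and 198, with 118.9 ± 21.5 in WT. The log2 differences were 3.39, 3.64 and 2.04 (adjusted p = 2.09e-05, 0.00382 and 0.00142). In these 3 genes the P53-/- libraries were the low ones of the 12. Whether the alleles at the Chd8 locus or the flanking chromosome differ between the genotypes' mice is not stated in the labels and was not tested.

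**Figure D5:**
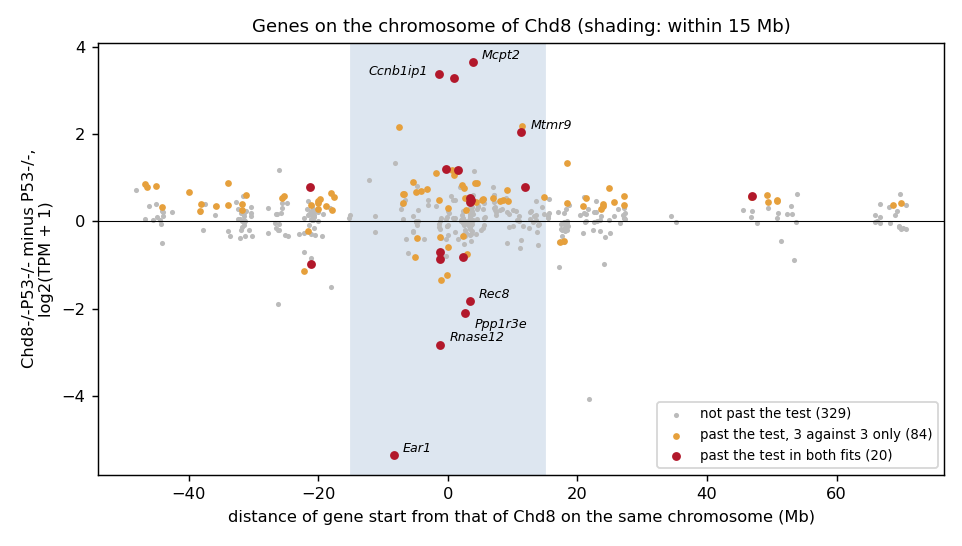
Difference between Chd8-/-P53-/- and P53-/- (y, log2(TPM + 1)) against the distance of each gene's start from that of Chd8 on its chromosome (x, Mb), with 433 genes and shading for the window of 15 Mb on either side. Red points passed both fits and 17 of the 20 lie in the shaded window, from Ear1 at -5.35 to Mcpt2 at 3.64.

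Some large differences passed against the 3 P53-/- libraries but not in the run of 10. Podxl, a sialomucin of stem and endothelial cells, was at 2.75, 3.67 and 1.55 TPM in P53-/- and 19.6, 35.8 and 41.2 in Chd8-/-P53-/-, up by 3.16 (adjusted p = 0.0122; 0.0949 in the run of 10). Morn4 was at 7.11, 7.96 and 4.77 TPM against 0.775, 0.643 and 1.22, a fall of 2.01 (adjusted p = 0.00157; 0.0539). Maged1, of the MAGE family, was at 27.4, 37.7 and 15.4 TPM against 6.91, 5.62 and 8.63, a fall of 1.72 (adjusted p = 0.0112; 0.200). No overlap of the libraries was a condition for naming these genes, so the lone P53-/- library had to lie on the same side as the others. Ifi44l, an interferon-stimulated gene outside the list of 49 above, was listed at 0, 0.0389 and 0 TPM in P53-/- and 43.0, 42.0 and 37.8 in Chd8-/-P53-/-, but at 37.9 ± 39.2 in WT. Its call (adjusted p = 0.0140; 0.144 in the run of 10) was lost without P53-/- replicate 1 or Chd8-/-P53-/- replicate 2. Rps12l1, Fabp4 and Cxcl12 were also of this kind, and each lost its call when any of at least 5 of the 6 libraries was left out.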

How the data were processed

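RNA was measured in 12 LSK libraries, and the 4 ATAC-seq and 6 CUT&RUN samples were not analysed here. TPM of transcripts were deposited by the authors, 1 table per RNA library, with 105129 transcripts of 33641 gene symbols. Per the submitters' processing notes, STAR 2.6.1e, featureCounts 1.6.2 and Trim Galore 0.4.2 were among the tools and GRCm38 (mm10) was the build. The tool that made the TPM and the handling of strand and shared reads are not given in the sources used here. Run numbers come from the names of the deposited tables. As TPM are shares of a fixed total, depth is unknown and a fall of abundant genes lifts the others.

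TPM were summed for each gene, and the 13162 genes averaging 1 TPM or more (12 libraries) were tested on log2(TPM + 1), which understates changes of low genes. The test was limma (version 3.58.1, under R 4.3.3; lmFit, contrasts.fit, eBayes with trend), with 1 mean for each of 4 genotypes, 8 residual degrees of freedom, two-sided p and Benjamini-Hochberg adjustment over all genes, and every adjusted p is limma's. The fit on the run of 10 libraries had 6 residual degrees of freedom. The fit was tested on simulated data. Positions were matched by symbol to RefSeq GRCm38.p6 for 12703 genes. Python 3.11.15 with pandas 2.3.3 and matplotlib 3.10.9 made the sums and plots.

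The comparison, the gene lists and the rules were chosen with earlier results of these data known. Named genes were Chd8, Trp53, Cdkn1a, Mdm2, Kit and Ly6a, the 12 largest rises and 12 largest falls past both fits (at least 5 TPM in the higher group, no overlap), up to 6 each way past the main fit alone, and in each list the members of smallest p (4 at most). Predicted models and antigen receptor segments were left out of these. Alternatives changed pseudocount, filter, scaling, variance model, weights, run, replicate block, transcript summing or 1 library at a time. Some genes that these rules name are not reported here.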

Additional observations from a re-analysis of the deposited data

Results flagged for a closer look

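For the genes below, the Chd8 effect without P53 differed from that with P53 by a test of the difference itself (limma, adjusted p below 0.05 over all genes, effect without P53 minus effect with it, on the log2 scale). No explanation was tested. The groups that these differences rest on have 3 libraries each, and their Y-linked sums differed as given above.

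Cdkn1a, the p21 gene, gave -4.09 (SE 0.45, adjusted p = 0.00108), from 3.54 with P53 to -0.55 without it.

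On chromosome 14, the difference was 4.70 for Ccnb1ip1 (SE 0.27, adjusted p = 6.34e-06), 4.59 for Mcpt2 (adjusted p = 0.0151), -2.62 for Rnase12 (adjusted p = 0.0273), -2.28 for Ppp1r3e (adjusted p = 0.00314) and -1.60 for Rec8 (adjusted p = 0.0242). In these genes the P53-/- libraries stood apart from the other 9.

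Off that chromosome, it was 2.74 for C2cd4a (adjusted p = 0.0245) and -1.72 for Dmwd (adjusted p = 0.0186), both past the test in the run of 10 as well for Chd8-/-P53-/- against P53-/-. For Trbc1, which fell in both comparisons, it was 1.62 (adjusted p = 0.00864).

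Red cell genes gave 4.34 for Hbb-bs, 4.70 for Hba-a1, 4.32 for Hba-a2, 3.22 for Slc4a1, 3.89 for Rhag, 2.11 for Trim10 and 1.86 for Tfrc (adjusted p = 0.0155 for Trim10 to 0.0411 for Hbb-bs). None of the 7 passed in the run of 10 for Chd8-/-P53-/- against P53-/-.

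Dendritic cell genes gave 2.66 for Itgax, which encodes CD11c (adjusted p = 0.00531), and 1.98 for Xcr1, a chemokine receptor (adjusted p = 0.0141). Both went opposite ways, at 0.94 and 0.81 without P53 (limma adjusted p = 0.0404 and 0.0424) and -1.72 and -1.17 with it. Each rise without P53 lost its call under 18 settings, median-of-ratios scaling among them. Leaving out any of 5 of the 6 libraries compared did so for Itgax, and any of 4 for Xcr1. Against the P53-/- library of the same run the differences were 1.06 and 0.52.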

How the results depend on the processing

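Depth is unknown, and 2 of the 3 P53-/- libraries belong to another run, which limits every count here. The values that follow are, in this order where given, genes higher, genes lower, genes with a difference between both Chd8 effects, ribosomal protein genes lower and ribosome biogenesis genes higher, against 1471, 486, 237, 42 and 21. The run of 10 libraries alone gave 180, 118, 81, 17 and 0. The sequencing run as a covariate gave 183, 127, 95, 17 and 0. The run of 10 with median-of-ratios scaling, chosen after seeing the data, gave 110, 218, 89, 15 and 0. The 6 libraries alone gave 202, 117, 21 and 3, with no difference between effects. Library weights gave 2404, 803 and 1502, with the last 2 counts within 1.5 times. Median-of-ratios scaling gave 558 higher, 756 lower and 8 ribosome biogenesis genes, quantile normalization 662 higher and 22 ribosomal protein genes, and a mean of at least 5 TPM 153 genes with a difference between effects. Why these counts moved was not tested, beside the fewer samples of the smaller fits.

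With each of the 12 libraries left out in turn (those of WT and Chd8-/- chosen after seeing the data), the ranges were 434 to 2224 higher, 209 to 865 lower, 122 to 1562 with a difference between effects, 29 to 48 and 11 to 25. Counts of higher or lower genes moved by over 1.5 times without any of the 6 libraries compared, and the difference between effects also without WT replicate 1 (122) or Chd8-/- replicates 1 (142) and 2 (144).

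The replicate block gave 1433, 420, 223, 41 and 21. Deviations of same-numbered libraries correlated at 0.0858, -0.0826 and 0.0740, and those of differently numbered ones at -0.145 to 0.0794. The run split among the P53-/- libraries enters these deviations, so they cannot settle whether the numbers pair libraries.

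Of 2702 values of 97 named genes under alternatives, 2133 kept direction and side of the threshold, 559 kept direction but lost the call, 3 gained it and 7 changed sign. Mdm2 turned from -0.02 to 0.20 in the run of 10 and with the run covariate, 0.0606 with the most abundant transcript, 0.0610 in the run of 10 with median-of-ratios scaling, 0.13 without P53-/- replicate 2 and 0.02 without Chd8-/-P53-/- replicate 2, with leave-one-out values from -0.1346 (without P53-/- replicate 3) to 0.13. Kit turned from 0.15 to -0.0296 in the run of 10 with median-of-ratios scaling. None of these values passed. Trp53 gained a call at -0.43 with quantile normalization, -0.36 with library weights and -0.42 without P53-/- replicate 3.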

Other observations

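Chd9, a CHD remodeler related to Chd8 and picked after its values were seen, was at 351, 403 and 914 TPM in P53-/- and 375, 469 and 496 in Chd8-/-P53-/-. Against the library of the same run it was lower by -1.04 on the log2 scale (adjusted p = 0.0360), while against all 3 P53-/- libraries the difference was -0.19 (adjusted p = 0.701).

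Within the P53-/- group, 740 genes differed more than 2-fold between the mean of replicates 1 and 2 and replicate 3, and 44 of them were among the 1957 genes past the test. The pre-B cell gene Vpreb1 was at 7.14, 7.38 and 73.2 TPM in P53-/- and 29.4, 26.5 and 103 in Chd8-/-P53-/-. For this gene, also picked after its values were seen, P53-/- replicate 3 lay inside the range of the Chd8-/-P53-/- libraries and replicates 1 and 2 below it.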
